A study of Mus musculus with 16 samples.

Results

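The mature 5p miRNAs of the miR-181 family, mmu-miR-181a-5p, mmu-miR-181b-5p, mmu-miR-181c-5p and mmu-miR-181d-5p (the prefix for mouse is left out hereafter), were followed in small RNA libraries from plasma extracellular vesicles (pEVs). They were chosen by name, as the 4 mature 5p entries of the family, from 15159 ncRNAs listed, of which 817 are mature miRNAs. The table was searched for other miR-181 entries as well, and 7 were found: 3 mature 3p miRNAs and 4 precursor entries. The libraries came from 8 PS19 mice and 8 wild-type (WT) littermates of about 9.6 months, with equal numbers of males and females in each group. PS19 mice are heterozygous for a human MAPT (tau) transgene with the P301S mutation, driven by the murine prion protein promoter, and develop tau deposits and neuron loss. From each mouse, pEVs were precipitated from 200 µL plasma and gave 1 library, and other particles of plasma can come down with them. The comparison asks whether ncRNAs in pEVs of PS19 mice differ in abundance from those of WT mice.

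A miRNA guides Argonaute proteins to mRNAs that pair with its seed, bases 2 to 8 from the 5′ end, and thereby lowers their translation and stability. The miR-181 family is known best from the thymus and lymphocytes, where miR-181a tunes T cell receptor signalling, and it is also expressed in neurons, astrocytes and endothelium. Its members are made from hairpin precursors that lie in pairs, each pair transcribed together, and the 5p arm is the usual guide strand.

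The mature sequences are shown because members differ by few bases, so that a short read must cover those bases to be given to the right one. In RefSeq (GRCm38.p6), all 4 members were matched, and the seed is in capitals.
mmu-miR-181a-5p: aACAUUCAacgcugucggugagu
mmu-miR-181b-5p: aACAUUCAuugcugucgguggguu
mmu-miR-181c-5p: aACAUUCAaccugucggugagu
mmu-miR-181d-5p: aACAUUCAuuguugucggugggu
The seed ACAUUCA was found in these 4 and in no other of the 1679 mature mouse miRNA names in the RefSeq table. Outside it, positions are counted from 1 at the 5′ end of the first miRNA named. miR-181b-5p differed from miR-181a-5p by A9U, C10U and A21G and by 1 more base at its 3′ end. miR-181d-5p carried the same substitutions and C12U besides. Between miR-181b-5p and miR-181d-5p, C12U was the only substitution, and miR-181b-5p had 1 more base at the 3′ end. miR-181c-5p had no substitution against miR-181a-5p but lacked 1 base of it. How reads that match more than 1 member were assigned is not given in the sources used here.

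The 6 hairpin genes lie in 3 pairs (coordinates on GRCm38, the mm10 build that the labels name). Mir181a-1 (chr1:137966455-137966541, plus strand) and Mir181b-1 (chr1:137966639-137966718, plus strand) are separated by 97 bases, in an exon of the lincRNA A430106G13Rik on the same strand. Their nearest protein-coding gene is Ptprc, which encodes CD45, at 96320 and 96143 bp. Mir181a-2 (chr2:38852735-38852810, plus strand) and Mir181b-2 (chr2:38853830-38853918, plus strand) are 1019 bases apart, in an intron of Nr6a1, a nuclear receptor gene on the opposite strand. Mir181d (chr8:84178716-84178787, minus strand) and Mir181c (chr8:84178873-84178961, minus strand) are 85 bases apart, in an intron of Nanos3 on the same strand. The chromosome 1 and 2 pairs make the same mature miR-181a-5p and miR-181b-5p, so that the reads of these members cannot be divided between the loci. The hairpins of Mir181b-1 and Mir181b-2, with the 24 bases of miR-181b-5p in capitals, show this.
Mir181b-1: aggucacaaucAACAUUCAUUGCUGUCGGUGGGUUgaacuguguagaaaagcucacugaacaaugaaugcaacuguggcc
Mir181b-2: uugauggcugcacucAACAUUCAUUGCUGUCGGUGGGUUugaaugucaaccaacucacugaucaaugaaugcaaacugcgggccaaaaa
The longest run shared by both hairpins was 26 bases and holds the whole of the mature miRNA.

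Reads assigned to ncRNAs, summed over all entries, came to 66767724 to 107372555 per library in PS19 and 36220722 to 117583663 in WT mice. A read given to more than 1 entry would count more than once in these sums and in those of mature miRNAs. Whether entries with near-equal means share reads was not tested. Examples are miR-199a-3p and miR-199b-3p, at 263.7 and 263.5 normalized counts. The sums, and percents taken of them, may therefore not be those of distinct reads. Mature miRNAs took 0.705% ± 0.618 (SD, n = 8) of these sums in PS19 and 1.70% ± 2.41 (SD, n = 8) in WT mice. The medians were 0.589% and 0.663%. The WT mean rested on replicate 2, at 7.40%, and was 0.886% ± 0.749 (SD, n = 7) without it. The 4 members together had 14624 reads. The deposited values are read counts divided by a size factor of each library (normalized counts), and 1 read was worth up to 3.83 normalized counts, in PS19 replicate 4. All PS19 library names begin with the letter G, which only WT replicates 2 and 4 share. What the letter stands for is not given in the sources used here, so values within that letter are given with the fits and the shares. With limma, 735 of all ncRNAs had a raw p under 0.05 for PS19 against WT, 412 higher and 323 lower, and 0 passed 0.05 after adjustment. DESeq2 gave 822 with a raw p under 0.05 and 113 after adjustment, and edgeR 2295 and 318. With size factors from mature miRNAs only the split was 726 higher and 131 lower, with library totals 144 and 293, with TMM factors 270 and 533, and among libraries of the shared letter 139 and 505.

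Within the family, miR-181a-5p had the most reads, followed by miR-181b-5p and miR-181d-5p, and miR-181c-5p had close to none. Per nucleotide of mature length, the mean level over the 16 libraries was 20.3 ± 8.71 normalized counts for miR-181a-5p, 7.82 ± 3.99 for miR-181b-5p, 4.62 ± 2.14 for miR-181d-5p and 0.0868 ± 0.124 for miR-181c-5p (SD, n = 16). On that scale they ranked 47th, 76th, 95th and 314th of 697 mature miRNAs that have reads and a RefSeq sequence. miR-181a-5p exceeded miR-181b-5p in 16 of 16 libraries, by 1.41 ± 0.324 (SD) on the log2 scale per nucleotide (two-sided exact sign-flip permutation test over libraries, p = 3.05e-05, the smallest it can give, adjusted over 6 pairs p = 3.66e-05). miR-181b-5p exceeded miR-181d-5p in 15 of 16, by 0.70 ± 0.507 (exact sign-flip permutation test, adjusted p = 0.000275). The exception was PS19 replicate 7, where the ratio of miR-181b-5p to miR-181d-5p was 0.706. miR-181c-5p was lower than miR-181d-5p in 16 of 16, with a log2 difference of -5.54 ± 1.46 at a pseudocount of 1 (exact sign-flip permutation test, adjusted p = 3.66e-05). Since miR-181c-5p was at 0 in 9 libraries, the pseudocount sets the size of this difference, which was -7.54 ± 2.89 at a pseudocount of 0.1. Each step of this order passed the test, which asks only whether the read ratio of 2 members repeats over libraries. Whether reads of the members are captured and assigned equally well was not tested, so the order is one of reads. The same order was found within each genotype, the weakest step being miR-181b-5p over miR-181d-5p in PS19 mice (exact sign-flip permutation test, p = 0.0234, 7 of 8 libraries). Among the 10 libraries of the shared letter the steps were 1.48, 0.64 and -5.44 in the same sequence. Over all 16 libraries and not divided by mature length, they were 1.35, 0.77 and -5.61.

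miR-181c-5p and miR-181d-5p come from hairpins that are neighbours on chromosome 8, yet 36 reads were given to the first and 1955 to the second. miR-181c-5p had reads in 7 of 16 libraries. In PS19 libraries they numbered 1, 12, 5 and 1, in replicates 1 to 4, and 0 in the other 4. In WT libraries they numbered 7, 7 and 3, in replicates 5 to 7, and 0 in the other 5. The level of this member thus rested on few reads, and only 4 libraries had more than 3.

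**Figure D1:**
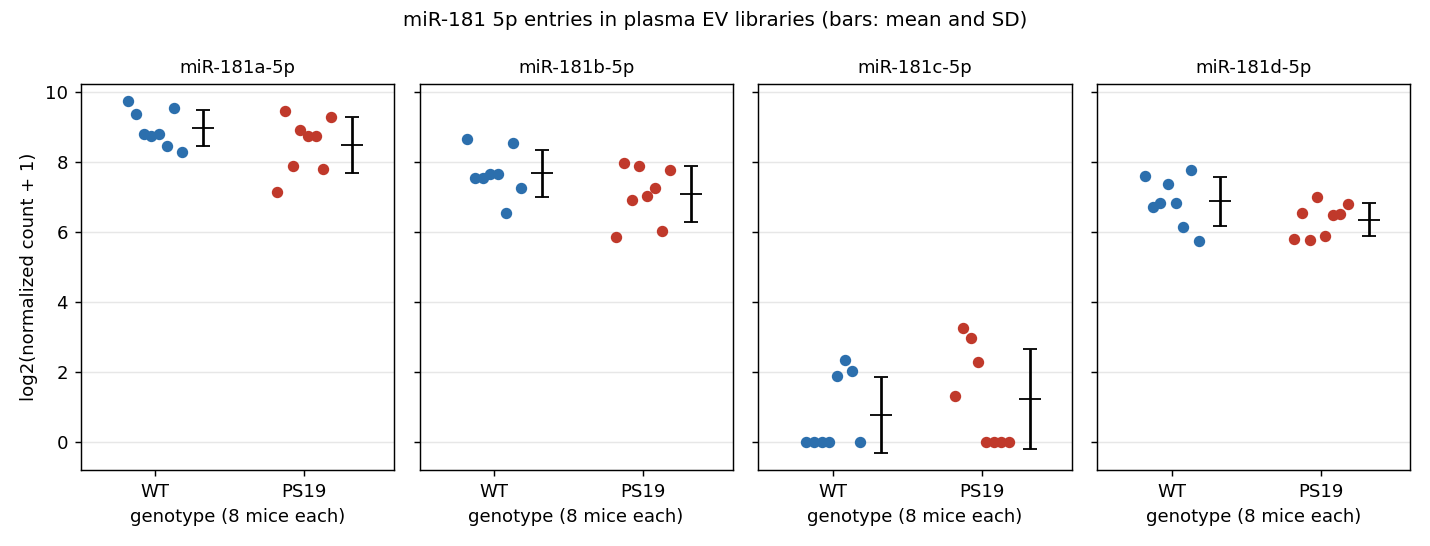
Each point is 1 library, with log2(normalized count + 1) of the member named above the panel on the vertical axis and the genotype on the horizontal axis; bars give the mean and SD of 8 mice. The genotypes overlap in all 4 panels, and miR-181c-5p is at 0 in 9 of 16 libraries.

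The abundance of miR-181a-5p, the member best known from T cells, was spread widely in both genotypes. Its lowest, median and highest normalized counts were 141, 427 and 706 in PS19 libraries and 313, 445 and 849 in WT libraries. The groups overlapped: 3 PS19 libraries were under the lowest WT library and 2 WT libraries above the highest PS19 one. The mean was 406 ± 198 in PS19 and 529 ± 195 in WT mice (SD, n = 8 each). With limma on log2(normalized count + 1), the log2 fold change of PS19 over WT was -0.47 (SE 0.438, 95% interval -1.37 to 0.42, limma p = 0.288, adjusted p = 0.829, two-sided exact permutation p = 0.182), which is within the spread between mice.

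miR-181b-5p, which is made beside miR-181a-5p at both its loci, showed a similar picture. The lowest, median and highest values were 57.3, 140 and 248 normalized counts in PS19 and 91.5, 193 and 401 in WT libraries. The groups overlapped, with 2 PS19 libraries under all WT libraries and 2 WT libraries, replicates 1 and 7, above all PS19 libraries. The mean was 152 ± 73.9 in PS19 and 223 ± 106 in WT mice (SD, n = 8 each). The log2 fold change was -0.59 (SE 0.455, 95% interval -1.52 to 0.35, limma p = 0.209, adjusted p = 0.829, exact permutation p = 0.140).

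miR-181d-5p, from the chromosome 8 pair, had 53.5, 90.1 and 127 normalized counts as lowest, median and highest values in PS19 and 52.6, 113 and 219 in WT libraries. The lowest values of both genotypes lay side by side, and 7 of 8 PS19 libraries were under the WT median, while 3 WT libraries were above the highest PS19 one. The mean was 84.3 ± 27.0 in PS19 and 128 ± 58.1 in WT mice (SD, n = 8 each). The log2 fold change was -0.53 (SE 0.429, 95% interval -1.41 to 0.35, limma p = 0.230, adjusted p = 0.829, exact permutation p = 0.0981).

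For miR-181c-5p the mean was 2.59 ± 3.46 normalized counts in PS19 and 1.23 ± 1.73 in WT mice (SD, n = 8 each). Both are under the level that 3 reads give on average, 4.01 and 2.85 respectively, so no fold is given and a difference was not detectable at this depth. On the log2(normalized count + 1) scale, limma gave p = 0.482 (adjusted p = 0.859) and the exact permutation test p = 0.491.

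In all, 0 of the 4 members had a raw p under 0.05 with limma, against 4.85% of all ncRNAs and 6.24% of mature miRNAs. The log2 fold change of all 3 abundant members was negative, with a median of -0.53 beside -0.011 over all ncRNAs. DESeq2 and edgeR on the recovered reads also called 0 of 4, where they called 5.42% and 15.1% of all ncRNAs and 2.82% and 20.3% of mature miRNAs, respectively. Their smallest raw p was that of miR-181d-5p, 0.0809 with DESeq2 (adjusted p = 0.470) and 0.169 with edgeR (adjusted p = 0.568). The 95% intervals are wide.

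The values of the 3 abundant members lay close to those of mature miRNAs as a class. Among the 219 mature miRNAs with a mean of at least 10 normalized counts, 203 (92.7%) had a negative log2 fold change, with a median of -0.64. Counted from the lowest, miR-181b-5p was 127th, miR-181d-5p 147th and miR-181a-5p 156th of the 219. Relative to that median the members stood 0.058 (miR-181b-5p), 0.12 (miR-181d-5p) and 0.17 (miR-181a-5p) higher on the log2 scale.

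**Figure D2:**
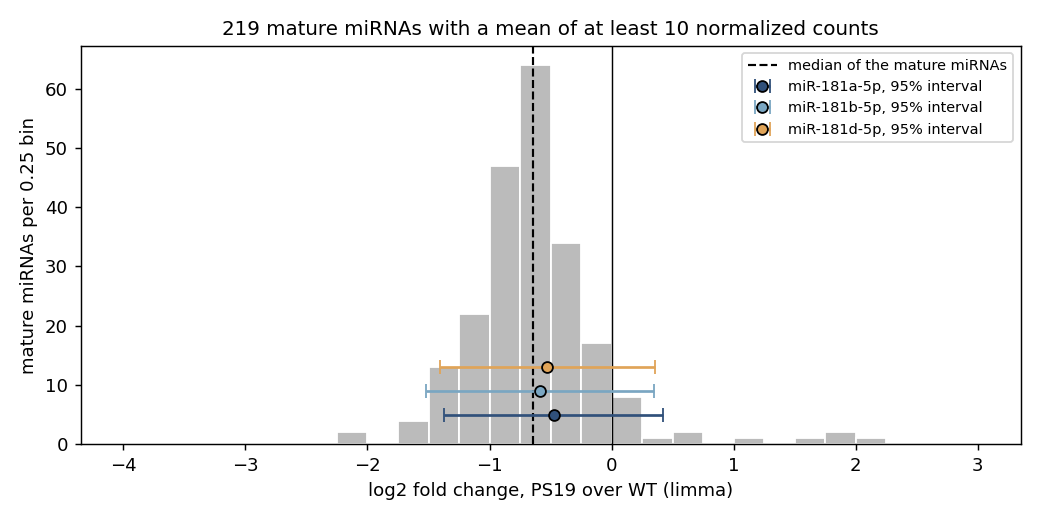
The histogram gives the number of mature miRNAs per bin of the limma log2 fold change, PS19 over WT, for the 219 with a mean of at least 10 normalized counts; points with 95% intervals mark miR-181a-5p, miR-181b-5p and miR-181d-5p, and the dashed line the median. The members, at -0.47, -0.59 and -0.53, lie just to the right of the median of -0.64, and their intervals cross 0.

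The direction of these values depended on the scaling. With size factors from mature miRNAs only, the log2 fold change was 0.089 for miR-181a-5p, -0.023 for miR-181b-5p and 0.035 for miR-181d-5p, and the median of the 219 mature miRNAs was -0.12, with 144 (65.8%) negative, and 0.17 over all ncRNAs. With library totals the members were at -0.75, -0.85 and -0.80 in the same sequence, and the mature miRNA median at -0.89. With TMM factors they were at -0.76, -0.87 and -0.81, and the median at -0.92. The 3 members stood above the mature miRNA median in each of these scalings, but not in every fit. With DESeq2 that median was -0.45, with miR-181b-5p at -0.55 and miR-181d-5p at -0.61, and with edgeR it was -0.67, with -0.82 and -0.88. With array weights the median was -0.48, with -0.57 and -0.53 for the same members, and without PS19 replicate 4 it was -0.57, with -0.70 and -0.62. Without WT replicate 6, miR-181b-5p alone was below it, at -0.75 against -0.73. Among the libraries of the shared letter, 8 PS19 against 2 WT, the values were -0.56, -0.51 and -0.69 with a mature miRNA median of -0.89 and 0.16 over all ncRNAs, and 0 of 4 members were called. Both of these WT libraries had 0 reads of miR-181c-5p, for which limma gave an adjusted p of 0.917. With so few WT libraries of that letter, its part in these values cannot be told apart well from that of the genotype.

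**Figure D3:**
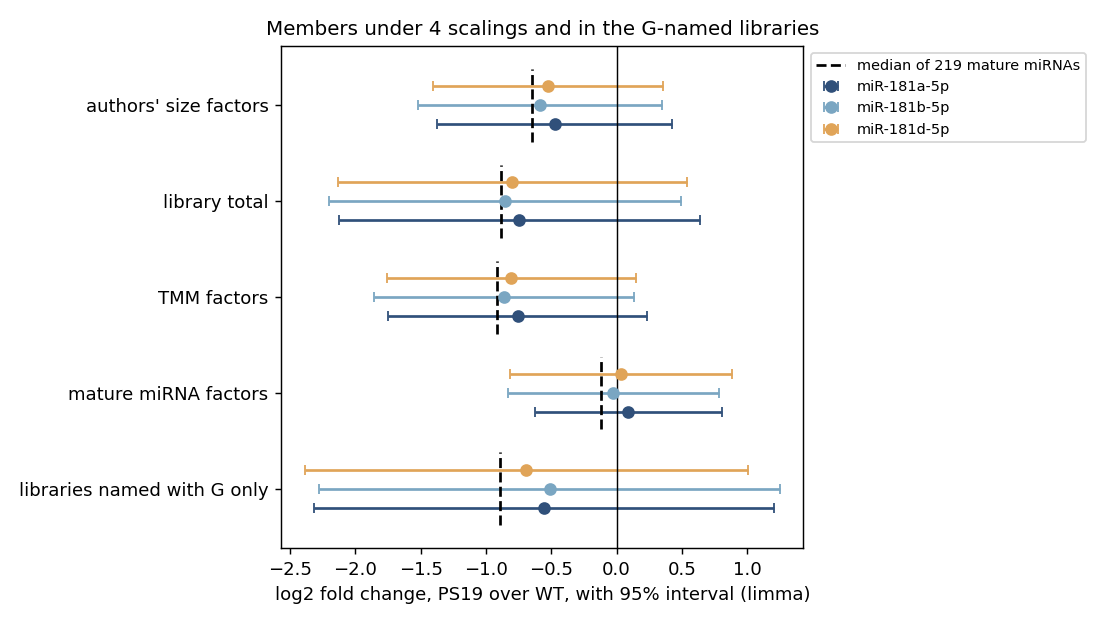
For each scaling or set of libraries (rows), points give the limma log2 fold change of PS19 over WT with its 95% interval for miR-181a-5p, miR-181b-5p and miR-181d-5p, and the dashed lines the median of 219 mature miRNAs. With size factors from mature miRNAs only, the 3 members lie at 0.089, -0.023 and 0.035; in the other rows they are negative, and the intervals cross 0 throughout.

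The 3 abundant members took similar shares of the family in both genotypes. Of the reads of the 4 members, not divided by length, miR-181a-5p took 61.7% ± 5.45 in PS19 and 60.6% ± 5.41 in WT mice (SD, n = 8 each). miR-181b-5p took 23.3% ± 3.69 and 24.8% ± 4.06, and miR-181d-5p 14.6% ± 5.53 and 14.4% ± 3.30. For miR-181c-5p the shares were 0.438% ± 0.587 and 0.171% ± 0.282, but the PS19 share was 0.264% without replicate 3 and the WT share 0.0835% without replicate 6. With both arms summed, the shares of miR-181c were 0.689% and 0.583%. These differences were smaller than 1 SD of either genotype for the 3 abundant members, and no test was made of them. In the 2 WT libraries of the shared letter, the mean shares were 61.6% ± 10.8 for miR-181a-5p, 22.5% ± 3.90 for miR-181b-5p, 15.9% ± 6.88 for miR-181d-5p and 0% for miR-181c-5p, which turns the sign of the small differences of miR-181b-5p and miR-181d-5p from PS19. The share of miR-181d-5p ran among PS19 mice from 8.75% in replicate 2 to 24.3% in replicate 7 (95% Wilson interval 20.5 to 28.4, which covers counting error only, since PCR copies are not independent molecules).

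**Figure D4:**
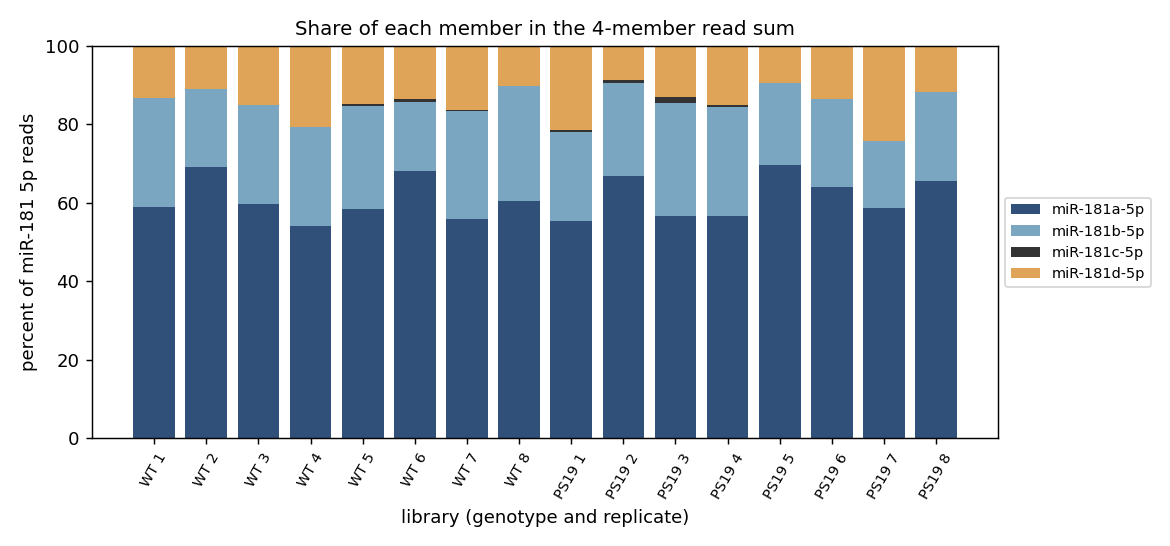
Stacked bars give the percent of the reads of the 4 miR-181 5p entries taken by each member, for each of the 16 libraries (genotype and replicate on the horizontal axis). miR-181a-5p takes between 54.0% and 69.5% in every library, and the share of miR-181d-5p is highest, at 24.3%, in PS19 replicate 7.

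Relative to mature miRNA reads, summed over entries, the 4 members together took 0.179% ± 0.112 (SD, n = 8) in PS19 mice, from 0.0916 to 0.426. In WT mice they took 0.123% ± 0.0346 (SD, n = 8), from 0.0856 to 0.199. In normalized counts their sum was 645 ± 287 in PS19 and 881 ± 345 in WT mice. The mean was higher in PS19 by the first measure and in WT mice by the other, and the genotypes overlapped in both. The medians of the share were 0.127% and 0.113%, and without PS19 replicate 4 the PS19 mean was 0.144% ± 0.0559 (SD, n = 7). The 2 WT libraries of the shared letter had means of 0.0981% ± 0.0176 and 867 ± 110, with the same order. The highest share, 0.426% (95% Wilson interval 0.373 to 0.486), was that of PS19 replicate 4, which had 51467 mature miRNA reads, the fewest of all libraries.

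miR-181a-5p and miR-181b-5p, the pair made together at chromosomes 1 and 2, varied together over the libraries. On log2(normalized count + 1), their Pearson r was 0.91 and Spearman's rho 0.91 over 16 libraries, and r was 0.83 without the 2 libraries farthest from the median of miR-181a-5p. It was 0.93 within PS19 and 0.85 within WT libraries. For miR-181d-5p, r was 0.71 (rho 0.74) with miR-181a-5p and 0.76 (rho 0.81) with miR-181b-5p. Without the 2 farthest libraries these became 0.74 and 0.85, the latter above the 0.83 of the first pair. Within PS19 they were 0.63 and 0.61 and within WT libraries 0.80 and 0.85, so that the order of the 3 pairs was not the same in all subsets. Over the 10 libraries of the shared letter, r was 0.92 for miR-181a-5p with miR-181b-5p, 0.58 for miR-181a-5p with miR-181d-5p and 0.63 for miR-181b-5p with miR-181d-5p. The median r over all pairs of the 219 mature miRNAs was 0.43, and 99.1%, 82.2% and 88.0% of those pairs, respectively, were below the 3 values. These points share their library and its scaling, and no difference between correlations was tested.

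**Figure D5:**
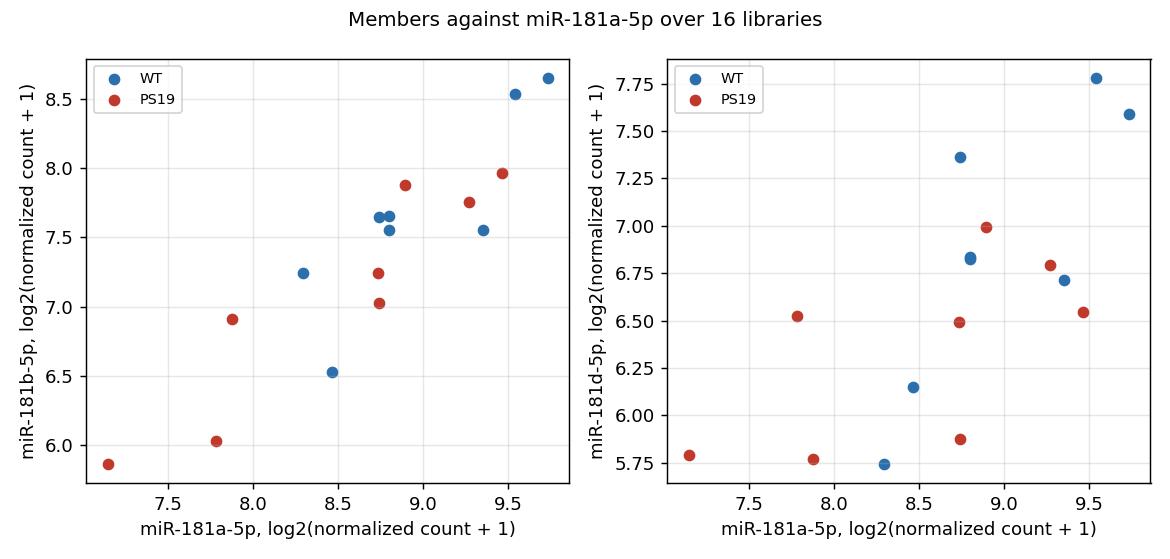
Each point is 1 library, coloured by genotype, with log2(normalized count + 1) of miR-181a-5p on the horizontal axis and that of miR-181b-5p (left) or miR-181d-5p (right) on the vertical axis. The left panel is tighter (r = 0.91) than the right (r = 0.71), and both genotypes spread along the same direction.

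How closely the members followed the mature miRNAs of the library depended on the measure. The median log2 level of mature miRNAs had a Pearson r of 0.89 (rho 0.76) with miR-181a-5p, 0.77 (rho 0.74) with miR-181b-5p and 0.64 (rho 0.64) with miR-181d-5p over 16 libraries. With the summed normalized count of mature miRNAs, r was 0.83, 0.66 and 0.51 in the same sequence, and with the mature miRNA percent of assigned reads it was 0.58, 0.32 and 0.24. With the size factor, r was 0.22, -0.057 and -0.052. Without the 2 farthest libraries, r was 0.78, 0.57 and 0.62 with the median level and 0.88, 0.71 and 0.59 with the summed count. It was then 0.74, 0.55 and 0.44 with the percent and 0.39, 0.020 and 0.019 with the size factor. Among 216 mature miRNAs with a mean of at least 10 normalized counts and not from the miR-181 loci, those most like miR-181a-5p over the 16 libraries were miR-99b-5p (r = 0.90), miR-361-3p (0.88) and miR-30a-3p (0.88). For miR-181b-5p they were miR-222-3p (0.88), miR-103-3p (0.85) and miR-219a-1-3p (0.80), and for miR-181d-5p miR-222-3p (0.81), miR-7a-5p (0.80) and miR-30c-5p (0.80). Over 2622 entries of any class, circ_0004224 (0.91), miR-99b-5p and the precursor entry mir-30d (0.90) led for miR-181a-5p, circ_0002999 (0.82) joined the first 2 for miR-181b-5p, and the same 3 miRNAs led for miR-181d-5p.

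Of 24 marker miRNAs of cells that release miRNAs into plasma, 24 are listed. Sums of normalized counts are given as ranges. The 4 red blood cell miRNAs, such as miR-451a, summed to between 1952 and 44873 in PS19 and between 17302 and 94866 in WT libraries. Most of this was miR-486a-5p, with means of 23318 in PS19 and 43609 in WT mice, against 1731 and 2795 for miR-451a. The 6 white blood cell miRNAs, among them miR-150-5p and miR-223-3p, summed to between 629 and 7041 and between 1266 and 5404. Here miR-146a-5p made up most, with means of 3691 and 3366. Those of miR-150-5p were 143 and 165 and those of miR-223-3p 56.2 and 31.1. The 6 neuron miRNAs summed to between 1024 and 10270 and between 2238 and 10562, and of these miR-137-3p had 1 read in all libraries together, in a WT library. For the 3 liver miRNAs the ranges were 8502 to 211904 and 26564 to 386443, for the 2 endothelial ones 516 to 2262 and 1444 to 3373, and for the 3 muscle miRNAs 1733 to 94150 and 4513 to 64139. The neuron sum was mostly miR-128-3p, with means of 2774 and 3604. The liver sum was mostly miR-122-5p, with means of 48535 and 122795. Of the 24, limma gave a raw p under 0.05 to 3, beside 4.85% of all ncRNAs, 6.24% of mature miRNAs and 24 of the 219 mature miRNAs with a mean of at least 10. They were miR-486a-5p of red blood cells (log2 fold change -1.41), the liver miRNA miR-122-5p (-1.57) and the muscle miRNA miR-206-3p (1.79), all with an adjusted p of 0.829. The median log2 fold change of the 24 was -0.49, with 20 of 24 negative. By list it was -0.81 for liver, -0.75 for endothelium, -0.72 for red blood cells, -0.49 for neurons, -0.13 for white blood cells and 1.16 for muscle. The muscle value is that of miR-133a-3p, which was not called and had mean normalized counts of 29.7 in PS19 and 35.8 in WT mice, miR-1a-3p was at -0.024, and only miR-206-3p of this list was called. The part of any of these cells in the values of the members was not tested.

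The other miR-181 entries were rare. The 3p arms are shown because they are the other strand of the same hairpins, with bases 2 to 8 in capitals.
mmu-miR-181a-1-3p: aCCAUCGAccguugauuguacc
mmu-miR-181b-1-3p: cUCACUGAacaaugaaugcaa
mmu-miR-181c-3p: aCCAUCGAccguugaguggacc
miR-181a-1-3p and miR-181c-3p share bases 2 to 8, which differ from the seed of the 5p arms. miR-181a-1-3p had 30 reads and miR-181b-1-3p 14, against 9172 reads of miR-181a-5p and 3461 of miR-181b-5p. These 3p arms come from the chromosome 1 hairpins and the 5p reads from both loci, so the counts give no share of the arms of 1 hairpin. For miR-181c the 3p arm had more reads in all than the 5p arm, 57 against 36, both arms being 22 nucleotides long. Of the 57, WT replicate 5 had 21 and PS19 replicate 2 had 17. In PS19 replicates 1 and 3 and WT replicate 6 the 5p arm had more reads. Of the 8 libraries with miR-181c-3p, 5 also had miR-181c-5p. The highest value of miR-181c-3p was 12.2 normalized counts in PS19 replicate 2 and 12.4 in WT libraries.

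Among precursor entries, mir-181a-2 had 130 reads in 14 libraries, 38 of them in PS19 replicate 8, mir-181d had 4 reads, and mir-181b-1 and mir-181b-2 had 10 reads each with identical values in all 16 libraries, so that they cannot be told apart in this table. Of the 7 entries, 0 had a raw p under 0.05 with limma or DESeq2, against 4.85% and 5.42% of all ncRNAs. edgeR gave one to mir-181d (adjusted p = 0.223), whose 4 reads were all in WT libraries, and 1 of 7 is close to the 15.1% that it called over all ncRNAs.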

How the data were processed

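The pEV libraries of 16 mice, 8 of each genotype, were grouped by the labels. The authors aligned reads with STAR 2.5.3a (mm10, per the labels), annotated them with COMPSRA and tested them with DESeq2 1.42.1. The signal values deposited by the authors are reads per ncRNA over the DESeq2 size factor of the library, and 100% of them were whole reads within 1e-06 once divided by the library's smallest positive value. The authors' own fold changes, p-values and means were not used.

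limma 3.58.1 (lmFit, eBayes with a trend, two-sided) was fitted to log2(normalized count + 1) of all 15159 ncRNAs. The threshold was a raw p of 0.05, and Benjamini-Hochberg adjusted values cover all ncRNAs. DESeq2 1.42.0 and edgeR 4.0.16 (R 4.3.3) were run on the recovered reads. The limma, DESeq2 and edgeR fits were run on simulated data with planted changes larger than those of the members. That check does not tell how well changes of the size seen here are found. Single values were tested with exact permutation tests (SciPy 1.17.1, Python 3.11.15). Member levels were divided by mature length, with a pseudocount of 1 on the normalized count. miRNAs named beside the members are the 3 mature miRNAs and 3 entries of any class with the highest r to each member with a mean of at least 10, and the marker lists. Other alternatives were library totals, TMM or mature miRNA factors, a pseudocount of 0.1, minimum means of 1 and 10, 1 ncRNA per identical set, a replicate block, array weights, and libraries left out. Family percents and correlations within the shared library letter, the mature miRNA percent without WT replicate 2, and the family percent without PS19 replicate 4, were added after seeing the data. The members, lists and tests were chosen with earlier results of these data known. Sequences are from RefSeq (GRCm38.p6) and gene positions from GENCODE M21.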

Additional observations from a re-analysis of the deposited data

Results flagged for a closer look

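Of 34 groups of 8 libraries examined, 9 had a library far from the others by Dixon's criterion. For continuous values chance alone gives about 1 in 20 groups, but that rate does not hold for entries that are mostly 0, where 1 library with reads is enough, so the 2 numbers cannot be compared. miR-181c-3p stood out in PS19 replicate 2 at 12.2 normalized counts, where the next PS19 library had 3.83. mir-181a-2 stood out in PS19 replicate 8 at 27.6 normalized counts, where the next had 11.5. mir-181b-1 stood out at 7.35 normalized counts in PS19 replicate 6 and at 0.976, which is 1 read, in WT replicate 3, and mir-181b-2, whose values are identical and count again, did so in the same libraries at 7.35 and 0.976. mir-181d stood out in WT replicate 8 at 4.26 normalized counts, which is 3 reads. The 4 members took 0.426% of mature miRNA reads in PS19 replicate 4, where the next PS19 library had 0.249%. miR-181c-5p took 0.782% of the reads of the 4 members in WT replicate 6, where the next WT library had 0.357%. None of the normalized counts of miR-181a-5p, miR-181b-5p, miR-181c-5p or miR-181d-5p was picked out in this way.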

How the results depend on the processing

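No member was called in any of the alternatives. With size factors from mature miRNAs only, the log2 fold changes turned to 0.089 for miR-181a-5p and 0.035 for miR-181d-5p, since that scaling sets values relative to the mature miRNAs. The raw limma calls over all ncRNAs, 735, became 437 with library totals and 230 with a minimum mean of 10, where fewer ncRNAs are tested, and edgeR gave 2295. For library totals and edgeR the cause was not tested. edgeR also called 1 other miR-181 entry. With both arms summed, the share of miR-181c was 0.583% in place of 0.171% in WT and 0.689% in place of 0.438% in PS19. The log2 difference of miR-181c-5p from miR-181d-5p was -7.54 in place of -5.54 at a pseudocount of 0.1.

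Leaving out each library in turn gave log2 fold changes of -0.61 to -0.28 for miR-181a-5p, -0.75 to -0.41 for miR-181b-5p and -0.69 to -0.40 for miR-181d-5p, with 567 to 846 calls over all ncRNAs. The share of miR-181c-5p ran from 0.264% to 0.501% in PS19 and from 0.0835% to 0.195% in WT. miR-181c-5p was not tested at a minimum mean of 10. The step from miR-181b-5p to miR-181d-5p stayed between 0.65 and 0.79 on the log2 scale.

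Both genotypes are numbered 1 to 8, but the numbers are those of different mice. Deviations of same-numbered libraries correlated above 0.1 in 2 of 8 pairs, and 3 of 16 libraries correlated best with their own number. With the replicate block, 685 ncRNAs and 0 members had a raw p under 0.05, and the limma p was 0.357 for miR-181a-5p, 0.282 for miR-181b-5p, 0.532 for miR-181c-5p and 0.297 for miR-181d-5p. miR-181c-5p and the rare entries rest on few reads, and WT replicate 2, with the most family reads (2296), had 0 of miR-181c-5p.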
